A study of Mus musculus with 8 samples.

Results

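The enzymes described are those that build pyrimidine nucleotides and the deoxynucleotides used for DNA: Cad, Dhodh, Umps, Ctps, Rrm1, Rrm2, Tyms, Dut and Tk1. The 9 genes were chosen with earlier results of these data known. Their probes were found by gene symbol in the annotation of the array, and every probe that carried one of these 9 symbols was taken. This gave 28 of the 45281 probes and 9 of the 19057 gene symbols on the array. Of these probes, 16 were above background (a detection p under 0.05) on at least 2 of the 8 arrays and were tested, among 13315 tested probes in all. Each of the 9 genes kept at least 1 tested probe.

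The arrays measured RNA from mouse leukaemia stem cells on a C57BL/6 Actin-dsRed background, made leukaemic by the MLL-AF9 fusion oncogene. All groups shared the oncogene, the dsRed reporter, serial passage to quaternary recipients and a sort from bone marrow as Hoechst-low, dsRed-positive, c-kit-high, CD34-positive, FcyRII-high cells. The Luc control group (3 arrays) carried a hairpin against luciferase. The Itgb3-17 knockdown group (3 arrays, replicates 1 to 3) and the Itgb3-20 knockdown group (2 arrays, replicates 4 and 5) each carried a different hairpin against Itgb3, the integrin beta 3 subunit gene. The age of the mice and the way the hairpins were delivered are not given in the sources used here. Nor is it said which arrays came from different mice, and the p-values therefore rest on variation among these arrays that could be purely technical.

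Pyrimidines are made from glutamine, aspartate and phosphoribosyl pyrophosphate. Cad starts the ring, Dhodh oxidises dihydroorotate at the inner mitochondrial membrane, Umps turns orotate into UMP, and Ctps aminates UTP to CTP. Ribonucleotide reductase, with Rrm1 as its large and Rrm2 as its small subunit, then makes deoxynucleotides. Thymidylate comes from dUMP through Tyms, with Dut supplying the dUMP from dUTP, or from thymidine through Tk1. Dividing blood progenitors and leukaemia cells use these pathways for RNA and DNA synthesis, and several of the enzymes are targets of known drugs, such as brequinar for Dhodh and hydroxyurea for ribonucleotide reductase.

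Promoter sequences (250 bases before to 50 bases from the start, RefSeq, GRCm38.p6) were found for 8 of the 9 genes, not for Dhodh, and Ctps had a second start. Those of Umps and Ctps are shown because these genes held the only probes that passed the test, beside Cad from the same branch and Rrm1 from the deoxynucleotide branch. Capitals mark a motif match on either strand: CRE in Umps, NRF1 in Ctps, an E2F core in Cad and Rrm1, and CCAAT boxes in Rrm1.
Umps, chr16:33966989-33967288, minus strand: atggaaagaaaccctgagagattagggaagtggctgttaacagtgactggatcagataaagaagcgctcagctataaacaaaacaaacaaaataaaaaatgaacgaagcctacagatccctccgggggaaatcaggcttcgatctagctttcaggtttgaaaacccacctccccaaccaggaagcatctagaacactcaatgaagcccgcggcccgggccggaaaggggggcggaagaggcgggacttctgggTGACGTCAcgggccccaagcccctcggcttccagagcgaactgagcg
Ctps, chr4:120570227-120570526, minus strand: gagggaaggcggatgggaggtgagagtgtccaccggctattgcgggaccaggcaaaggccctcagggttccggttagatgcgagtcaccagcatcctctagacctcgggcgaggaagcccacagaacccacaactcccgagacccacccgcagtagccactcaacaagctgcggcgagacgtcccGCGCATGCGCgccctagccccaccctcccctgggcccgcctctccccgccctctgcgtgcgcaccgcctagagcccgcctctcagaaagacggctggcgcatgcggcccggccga
Cad, chr5:31054530-31054829, plus strand: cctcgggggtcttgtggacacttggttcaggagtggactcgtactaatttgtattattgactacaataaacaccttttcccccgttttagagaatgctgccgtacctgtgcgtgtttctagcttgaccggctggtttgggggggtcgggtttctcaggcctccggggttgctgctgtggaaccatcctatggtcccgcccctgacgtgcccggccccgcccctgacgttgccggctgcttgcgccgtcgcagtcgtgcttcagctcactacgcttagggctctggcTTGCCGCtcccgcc
Rrm1, chr7:102441445-102441744, plus strand: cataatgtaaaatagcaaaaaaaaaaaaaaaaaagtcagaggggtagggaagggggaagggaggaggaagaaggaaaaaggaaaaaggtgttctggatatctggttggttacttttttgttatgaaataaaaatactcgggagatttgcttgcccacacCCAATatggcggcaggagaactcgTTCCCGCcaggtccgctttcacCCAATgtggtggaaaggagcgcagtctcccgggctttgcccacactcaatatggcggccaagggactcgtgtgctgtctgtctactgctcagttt

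Umps held the CRE sequence TGACGTCA at bases 4 to 11 from its start, a motif found in 1.79% of 32851 promoters of this length. Ctps held the palindromic NRF1 motif, capitals in its sequence above, at -65 to -56, and 0.971% of promoters hold it. The E2F core, searched as TTCCCGC or its variants TTGGCGC and TTCGCGC as well as TTGCCGC, and found in 9.57% of promoters, lay at 37 to 43 in Cad and at -67 to -61 in Rrm1. It also lay at -235 to -229 in Rrm2 and at -234 to -228 in the second Ctps promoter. CCAAT, found in 37.4%, lay at -91 to -87 and -45 to -41 in Rrm1 and at -50 to -46 in Rrm2. The E-box CACGTG, found in 7.15%, lay at -61 to -56 in Tyms, and the Dut and Tk1 windows matched none of these motifs. Umps and Ctps, the genes with probes called lower, thus shared no searched motif in these windows, and a match describes letters only.

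Between 9262 and 11856 probes (20.5% to 26.2%) were above background on each array, and precision is limited by how few arrays there are. Itgb3 itself had 1 probe, above background on 0 of the 8 arrays (detection p 0.324 to 0.912), so the knockdown could not be checked from these data. Of 9 markers of the sorted cells, 6 were tested, and Cd34, a gate marker, was among the 3 that were not above background on enough arrays. Mpo (0.98, limma adjusted p = 0.000694) and Fcgr2b (0.51, 0.0181) were higher and Hoxa9 (-0.82, 0.0222) was lower in the knockdown. Kit (-0.29, limma adjusted p = 0.243), Meis1 (0.03, 0.931) and Fcgr3 (0.43, 0.0691) were not called. The summed background-corrected intensity of the tested sorted-cell markers was 1440 to 1890 in the controls, 2200 to 2360 with Itgb3-17 and 3290 to 3450 with Itgb3-20. Mpo, by far the brightest of these markers, weighs most in this sum, which therefore does not describe them as a set. On the log2 scale Mpo measured 9.95 to 10.45 in the controls and 11.42 and 11.49 with Itgb3-20. Of 7 late granulocyte markers 6 were tested, and Ltf, Camp and S100a9 were called higher in the knockdown. S100a8 (0.327, limma adjusted p = 0.111), Ngp (0.116, 0.689) and Lcn2 (0.0185, 0.959) were not called. The summed background-corrected intensity of the tested granulocyte markers was 2390 to 2770 in the controls, 2400 to 2450 with Itgb3-17 and 4350 to 4730 with Itgb3-20. S100a8 was the brightest of them, at 10.94 on every Itgb3-17 array on the log2 scale. Ltf (5.46 to 5.78) and Camp (5.59 to 6.31) were above all controls (4.39 to 4.43 and 4.61 to 5.52) on all 3 Itgb3-17 arrays. S100a9 with Itgb3-17 (7.253 to 7.683) overlapped the controls (6.745 to 7.393), and with Itgb3-20 it measured 9.393 and 8.814. The part of these sorted-cell and granulocyte markers in the results below was not tested. Erythroid, B-cell, T-cell and stromal lists each had 1 tested marker, macrophages had 2 and megakaryocytes 0, and none of these markers was called.

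Averaged over both hairpins, probes of Umps and Ctps were called lower. No tested probe of Cad, Dhodh, Rrm1, Rrm2, Tyms, Dut or Tk1 passed the test. The calls were on 1 of 2 tested Umps probes and 2 of 3 tested Ctps probes, with falls of 1.48-fold to 1.81-fold. With Itgb3-17 alone 0 of the 16 probes was called, and with Itgb3-20 alone 2 were. Of the 16 tested probes, 3 (18.8%) were called lower and 0 higher in knockdown minus control (limma, adjusted p under 0.05). Among all tested probes 16.8% were called, 7.84% lower and 8.93% higher. At an unadjusted p under 0.05, 4 of the 16 were lower and 0 higher. The median log2 difference of the 16 probes was -0.02, against 0.02 over all tested probes. RNA came from bulk sorted cells, so fewer cells of a type and less RNA per cell cannot be told apart.

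Scaling to a common median in place of quantile normalization changed the calls. It raised the median difference of all tested probes from 0.02 to 0.15 and turned the calls over the whole array from 1189 higher and 1044 lower into 1327 higher and 79 lower. Under it the means of Umps ILMN_1213014 and of every Ctps probe stayed below the controls, but 0 of the 16 probes was called. Umps ILMN_2987878, the other tested Umps probe, differed by 0.126. The level of each probe is given below as log2 of the background-corrected, quantile-normalized intensity, on which an increase of 1 is a doubling.

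**Figure D1:**
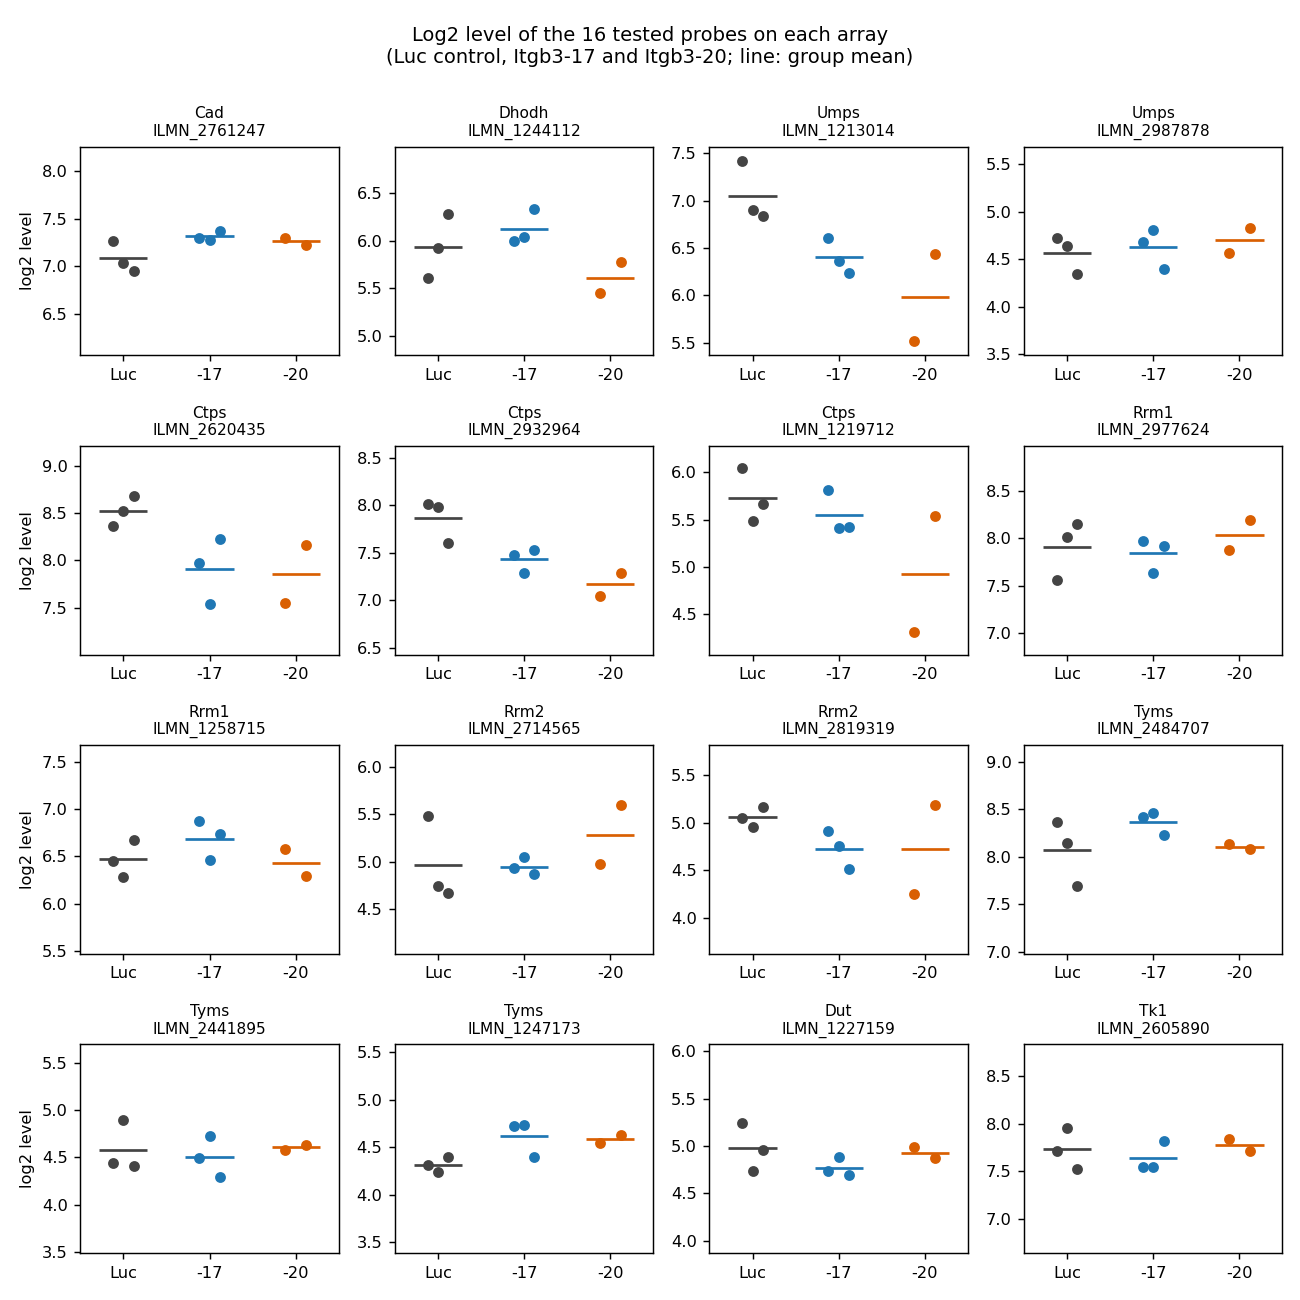
Normalized log2 intensity (vertical axis) of the tested probes of the 9 genes on each of the 8 arrays, with points for arrays, lines for group means and an axis of its own for each probe. For Umps ILMN_1213014 and Ctps ILMN_2620435 and ILMN_2932964 all 5 knockdown arrays sit below all 3 controls; for the other 13 probes the groups overlap.

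Umps carries the last enzyme activities of UMP synthesis, orotate phosphoribosyltransferase and OMP decarboxylase, on a single protein. Its bright probe, ILMN_1213014, measured 7.41, 6.90 and 6.83 in the Luc controls. With Itgb3-17 it measured 6.61, 6.37 and 6.23, and with Itgb3-20 it measured 5.52 and 6.44. Every knockdown array was below every control, and replicate 4 of Itgb3-20 was the lowest. The mean went from 7.05 ± 0.32 (SD, n = 3) to 6.23 ± 0.42 (SD, n = 5), a log2 difference of -0.86 (SE 0.200, 95% interval -1.28 to -0.43, limma adjusted p = 0.00843). This is a 1.81-fold fall, averaging the hairpins equally. Without Luc control replicate 1, the brightest control, the difference was -0.68 and the call was lost (limma adjusted p = 0.0576).

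The deposited linear signals of that probe, before background correction and scaling, were 213, 185 and 185 in the controls, 211, 143 and 181 with Itgb3-17, and 122.5 and 182 with Itgb3-20. Here Itgb3-17 replicate 1 reached the controls, so the separation of the Umps groups appeared after normalization. Itgb3-17 replicates 1 and 3 had the highest shares of probes above background, 26.2% and 25.2%. The other tested Umps probe, ILMN_2987878, was dim: it was above background on 0 of 3 controls, 2 of 3 Itgb3-17 arrays and 1 of 2 Itgb3-20 arrays. Its levels lay between 4.35 and 4.83 and its log2 difference was 0.09 (95% interval -0.23 to 0.42, limma adjusted p = 0.739). Where both Umps probes were averaged before the test, the difference was -0.38 and was not called (limma adjusted p = 0.131). Where on the transcript the probes lie was not used here.

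Ctps, the glutamine-dependent CTP synthase, fell on both of its bright probes. Probe ILMN_2620435 measured 8.36, 8.53 and 8.68 in the controls, 7.98, 7.54 and 8.22 with Itgb3-17, and 7.55 and 8.16 with Itgb3-20. No knockdown array reached the controls, and the means were 8.52 ± 0.16 (SD, n = 3) in the controls and 7.89 ± 0.33 (SD, n = 5) in the knockdown. The log2 difference was -0.64 (SE 0.181, 95% interval -1.02 to -0.25, limma adjusted p = 0.024), a 1.56-fold fall. Probe ILMN_2932964 measured 8.01, 7.98 and 7.61 in the controls, 7.48, 7.28 and 7.53 with Itgb3-17, and 7.05 and 7.29 with Itgb3-20. Its lowest control was only slightly above its highest knockdown array. The mean went from 7.87 ± 0.22 (SD, n = 3) to 7.33 ± 0.19 (SD, n = 5), a log2 difference of -0.57 (SE 0.149, limma adjusted p = 0.016) and a 1.48-fold fall.

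The deposited linear signals of ILMN_2620435 were 333, 402 and 471 in the controls, 417, 228 and 484 with Itgb3-17, and 235 and 409 with Itgb3-20. Those of ILMN_2932964 were 277, 300 and 263 in the controls, 322 (replicate 1), 203 and 328 (replicate 3) with Itgb3-17, and 188 and 263 with Itgb3-20. Before normalization the groups therefore overlapped on both probes, and Itgb3-17 replicates 1 and 3 were above every control on ILMN_2932964.

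The third Ctps probe, ILMN_1219712, was dimmer and was not called. It measured 6.04, 5.48 and 5.66 in the controls, 5.81, 5.41 and 5.42 with Itgb3-17, and 4.32 and 5.54 with Itgb3-20. Replicate 4 of Itgb3-20 stood more than a log2 unit below every other array and was not above background there (detection p 0.568). The difference was -0.49 (95% interval -0.97 to -0.01, limma adjusted p = 0.16), so all 3 Ctps probes had lower means in the knockdown. Without replicate 5 of Itgb3-20 it was -0.78 and was called (limma adjusted p = 0.00499). The mean of the Ctps probes differed by -0.56 and was called (limma adjusted p = 0.0276). Calls of the single probes depended on individual arrays. ILMN_2620435 was not called without Luc control replicate 2 (adjusted p = 0.0772), Luc control replicate 3 (0.0981), Itgb3-17 replicate 2 (0.0582) or Itgb3-20 replicate 4 (0.0953), in the same limma fit. ILMN_2932964 was not called without Luc control replicate 1 (limma adjusted p = 0.0774), Luc control replicate 2 (0.0754) or Itgb3-20 replicate 4 (0.0532).

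Cad and Dhodh, which act upstream of Umps, did not pass the test. Cad, a single protein with the carbamoyl phosphate synthetase, aspartate transcarbamylase and dihydroorotase activities, measured 7.27, 7.03 and 6.95 in the controls. It measured 7.30, 7.27 and 7.37 with Itgb3-17 and 7.30 and 7.23 with Itgb3-20. The knockdown values lay close together around the brightest control, and the log2 difference was 0.20 (95% interval -0.09 to 0.50, limma adjusted p = 0.348). Dhodh measured 5.61, 5.92 and 6.28 in the controls, 6.00, 6.04 and 6.34 with Itgb3-17, and 5.45 and 5.77 with Itgb3-20. Each hairpin group overlapped the controls, but the Itgb3-20 arrays lay below every Itgb3-17 array. For knockdown minus control the log2 difference was -0.07 (95% interval -0.42 to 0.29, limma adjusted p = 0.833), and its sign turned to 0.24 under median scaling. Over the 7 tested probes of Cad, Dhodh, Umps and Ctps the median log2 difference was -0.49, but 3 of these are Ctps probes. With the probes of a gene averaged, the differences were 0.205 for Cad, -0.068 for Dhodh, -0.381 for Umps and -0.564 for Ctps. Of these 4 genes only Ctps was then called.

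**Figure D2:**
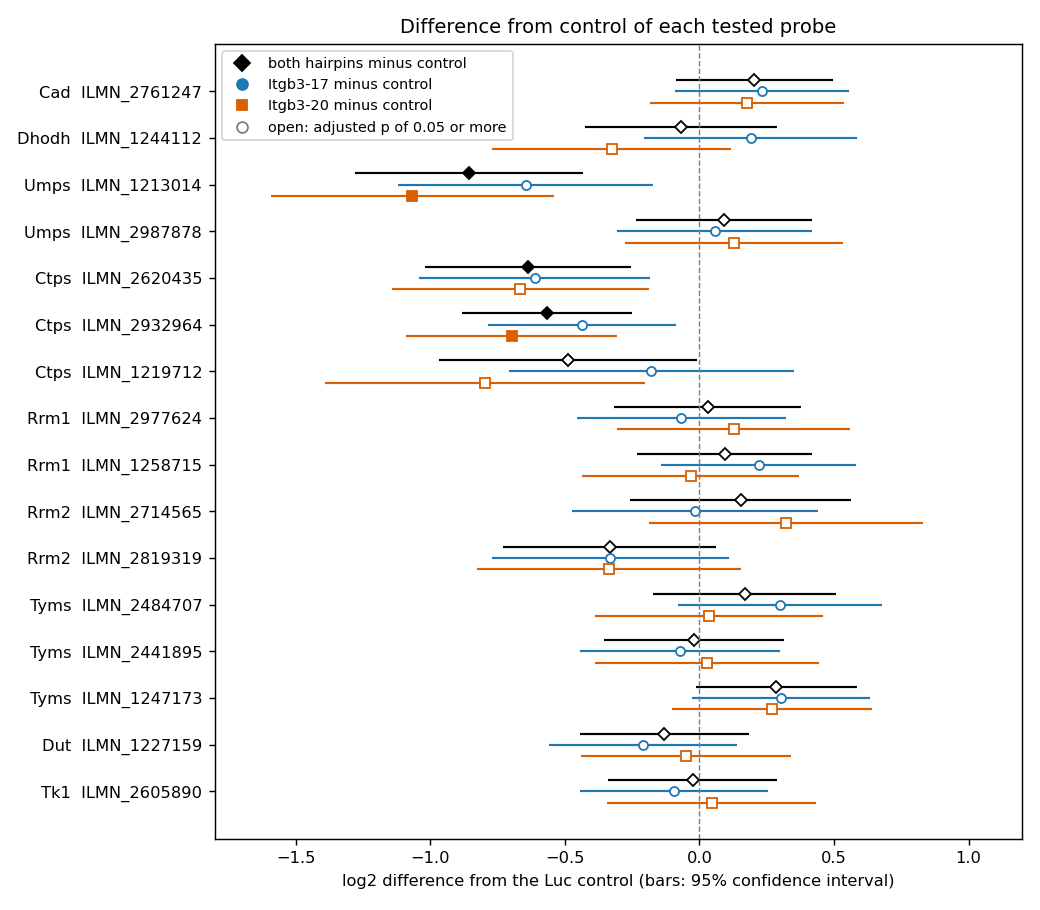
Log2 difference from the Luc control (horizontal axis) for the 16 tested probes, for both hairpins (black diamonds), Itgb3-17 (blue circles) and Itgb3-20 (orange squares), with 95% intervals from the limma fit and called probes filled. For both hairpins together, the intervals of Umps ILMN_1213014 and all 3 Ctps probes lie below 0, of which the first and 2 of the Ctps probes passed the adjusted threshold; the 9 deoxynucleotide probes lie between -0.33 and 0.29.

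In the deoxynucleotide branch 0 of 9 tested probes, covering Rrm1, Rrm2, Tyms, Dut and Tk1, was called in any comparison with the control (limma). Of all tested probes 16.8% were called for knockdown minus control, 12.9% with Itgb3-17 and 11% with Itgb3-20, so a count of 0 among 9 does not set this branch apart. For knockdown minus control 0 of the 9 had an unadjusted p under 0.05 (limma). The differences of these 9 probes ran from -0.33 to 0.29 on the log2 scale, with a median of 0.03 and adjusted p from 0.187 to 0.953. For knockdown minus control no interval reached beyond -0.73 or 0.59. The intervals reached from -0.77 to 0.68 with Itgb3-17 and from -0.83 to 0.83 with Itgb3-20. Signal near background limits the dim Rrm2, Tyms and Dut probes, so larger changes in their RNA are not excluded by these intervals.

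Rrm1, the catalytic subunit of ribonucleotide reductase, was bright on ILMN_2977624. It measured 7.56, 8.01 and 8.15 in the controls, 7.97, 7.63 and 7.92 with Itgb3-17, and 7.87 and 8.19 with Itgb3-20. The widest spread was among the controls, and the difference was 0.03 (95% interval -0.32 to 0.38, limma adjusted p = 0.933). The other tested Rrm1 probe, ILMN_1258715, ranged from 6.28 to 6.87 and differed by 0.09 (limma adjusted p = 0.734). Rrm2, the radical-bearing small subunit that is made in S phase, was dim on both tested probes. ILMN_2714565 measured 5.49, 4.74 and 4.67 in the controls, 4.93, 5.05 and 4.87 with Itgb3-17, and 4.98 and 5.6 with Itgb3-20, a difference of 0.15 (limma adjusted p = 0.647). ILMN_2819319 measured 5.05, 4.95 and 5.17 in the controls, 4.91, 4.76 and 4.51 with Itgb3-17, and 4.25 and 5.19 with Itgb3-20. Its difference was -0.33 (limma adjusted p = 0.252), opposite in sign to the other probe, and neither passed the test. Without replicate 5 of Itgb3-20 it was -0.56 and was called (limma adjusted p = 0.0183).

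Tyms, thymidylate synthase, measured 8.37, 8.15 and 7.69 on ILMN_2484707 in the controls, 8.41, 8.46 and 8.23 with Itgb3-17, and 8.13 and 8.08 with Itgb3-20. The third control was the lowest array, and the difference was 0.17 (95% interval -0.17 to 0.51, limma adjusted p = 0.527). Under median scaling this probe was called higher with Itgb3-17. The other tested Tyms probes, ILMN_2441895 and ILMN_1247173, passed the filter with 2 arrays each and differed by -0.02 and 0.29 (limma adjusted p = 0.953 and 0.187). Dut, the dUTPase that keeps uracil out of DNA, measured 5.25, 4.74 and 4.95 in the controls, 4.73, 4.88 and 4.70 with Itgb3-17, and 4.99 and 4.87 with Itgb3-20. Its groups overlapped, with a difference of -0.13 (limma adjusted p = 0.605). Tk1, the cytosolic thymidine kinase of dividing cells, measured 7.71, 7.96 and 7.52 in the controls, 7.55, 7.54 and 7.82 with Itgb3-17, and 7.84 and 7.71 with Itgb3-20. The difference was -0.02 (95% interval -0.34 to 0.29, limma adjusted p = 0.943), and it turned to 0.28 under median scaling.

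The 12 probes that were not tested lay between 4.15 and 5.10 on the log2 scale. Of these, 10 were above background on 0 arrays and 2, Umps ILMN_1254813 and Tk1 ILMN_2893926, on 1 array. Just inside the limit stood the 2 dim Tyms probes, with 2 arrays each, and Umps ILMN_2987878, with 3. Over the 16 tested probes, all 5 knockdown arrays were below all 3 controls for 3 and above them for 0, where the shares over all tested probes were 8.87% and 11.5%.

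The hairpins were also compared one at a time with the same controls, which both comparisons share. With Itgb3-17, 0 of 16 probes was called (limma; 3 lower and 0 higher at an unadjusted p under 0.05), where 12.9% of all tested probes were called, 5.69% lower and 7.22% higher. With Itgb3-20, 2 were called lower and 0 higher, where 11% were called, 5.27% lower and 5.71% higher. Umps ILMN_1213014 differed by -0.64 with Itgb3-17 (limma adjusted p = 0.0671) and by -1.07 with Itgb3-20 (0.0127, a 2.09-fold fall). Without replicate 4 of Itgb3-20 the latter was -0.61 and was not called (limma adjusted p = 0.218), and without replicate 5 it was -1.51.

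Ctps ILMN_2620435 differed by -0.61 with Itgb3-17 (limma adjusted p = 0.0564) and by -0.66 with Itgb3-20 (0.0695). Ctps ILMN_2932964 differed by -0.44 with Itgb3-17 (limma adjusted p = 0.0953), a sign that was lost under median scaling (0.0015), and by -0.70 with Itgb3-20 (0.0242). The latter call was lost without replicate 4 of Itgb3-20 (-0.58, limma adjusted p = 0.196), Luc control replicate 1 (0.0734) or Luc control replicate 2 (0.0769). Ctps ILMN_1219712 differed by -0.18 (limma adjusted p = 0.705) and -0.80 (0.0798). For Itgb3-20 minus Itgb3-17, 0 of 16 probes was called (limma; 2 lower at an unadjusted p under 0.05), where 0.533% of all tested probes were called, 0.285% lower and 0.248% higher. The hairpin difference was -0.42 for Umps ILMN_1213014 (95% interval -0.95 to 0.11, limma adjusted p = 0.557), so a hairpin-specific size of the Umps fall was not shown.

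**Figure D3:**
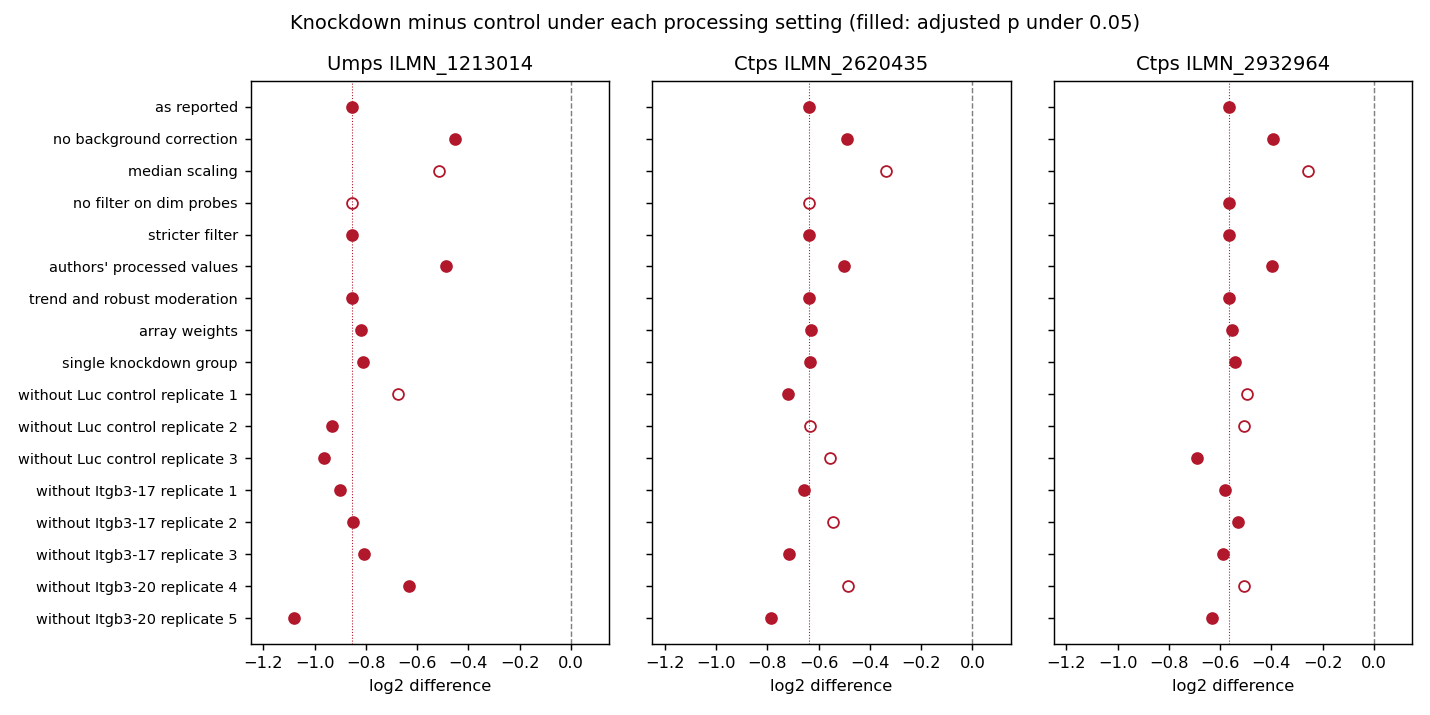
Log2 difference of knockdown minus control for Umps ILMN_1213014 and the 2 called Ctps probes under each way of processing and with each array left out, filled where the call held and open where it was lost. All values lie below 0; Umps ranged from -1.08 to -0.45, and none of the 3 was called under median scaling.

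Other genes of nucleotide metabolism were described by lists, with the brightest tested probe standing for a gene and all differences on the log2 scale. Among all 8189 such genes 17.7% were called, 8.25% lower and 9.46% higher, with a median difference of 0.02. Of the list of other pyrimidine synthesis and interconversion genes, 13 of 18 were tested, 3 were lower and 0 higher, with a median of -0.26. Slc25a36, a mitochondrial pyrimidine nucleotide carrier, fell from 5.83, 5.39 and 5.6 in the controls to 5.05, 5.15 and 5.14 with Itgb3-17 and 4.75 and 4.58 with Itgb3-20. The groups did not overlap, and its difference was -0.72 (limma adjusted p = 0.00352), called with each array left out. Nme2, a nucleoside diphosphate kinase, fell by 0.67 on its brightest probe (limma adjusted p = 0.0218) and by 0.95 on ILMN_3150658 (0.00161). Whether these probes also bind RNA of the close paralog Nme1 was not tested. Dtymk, thymidylate kinase, fell by 0.60 on its brightest probe (limma adjusted p = 0.0352) but rose by 0.60 on ILMN_2485787 (0.0157), so its direction is uncertain. Nme3 differed by 0.51 and was not called (limma adjusted p = 0.0533).

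Of the folate cycle genes that serve thymidylate synthesis, 8 of 13 were tested and 0 was called in either direction (limma; 1 higher and 1 lower at an unadjusted p under 0.05), with a median of -0.04. The lowest p-values belonged to Mthfd1 (0.38, limma adjusted p = 0.122), Fpgs (-0.36, 0.128), Mtr (-0.20, 0.34) and Shmt2 (0.17, 0.509). A second tested Mthfd1 probe had the opposite sign (-0.25, limma adjusted p = 0.297).

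In salvage, uptake and breakdown, 15 of 23 genes were tested, 3 rose and 2 fell, with a median of -0.03. Dctpp1, a dCTP pyrophosphatase, measured 6.29, 6.22 and 6.35 in the controls and between 6.71 and 7.44 in the knockdown, a rise of 0.82 (limma adjusted p = 0.00449). Nt5m, a mitochondrial deoxynucleotidase, rose by 0.78 (limma adjusted p = 0.0045), and Nt5c, its cytosolic relative, by 0.72 (0.0208). Nt5c3, a pyrimidine nucleotidase, measured 7.31, 7.39 and 7.39 in the controls and between 6.36 and 6.97 in the knockdown, a fall of 0.67 (limma adjusted p = 0.00406). Nt5c3b, the remaining call of the list and named after its values were seen, fell by 0.55 (limma adjusted p = 0.0432). Its call held in 2 of 8 other ways of processing and in 2 of 8 fits with an array left out. Nucleotide-degrading enzymes thus stood in both directions in this list.

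Of the purine genes, 16 of 23 were tested, 3 fell and 1 rose, with a median of -0.09. Adss, the adenylosuccinate synthase of AMP synthesis, measured 6.02, 5.39 and 5.52 in the controls and between 4.22 and 4.97 in the knockdown, a fall of 1.02 (limma adjusted p = 0.00186). Hprt, the hypoxanthine and guanine salvage enzyme, fell by 0.66 (limma adjusted p = 0.00499) with a second probe at -0.41 that was not called (0.0708), and Impdh1, an IMP dehydrogenase, by 0.67 (0.0102). Adssl1, a relative of Adss known from muscle, rose by 0.55 on its brightest probe (limma adjusted p = 0.021) and fell by 0.55 on ILMN_2711688 (0.0236).

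Of the S phase and E2F genes, 39 of 48 were tested, 8 (20.5%) fell and 3 rose, with a median of -0.09. Gins1, a subunit of the GINS complex of the replicative helicase, measured 6.93, 7.23 and 7.01 in the controls, 6.39, 6.26 and 6.23 with Itgb3-17, and 5.66 and 5.81 with Itgb3-20. All knockdown arrays were below all controls, and its fall was 1.04 (limma adjusted p = 0.000363). Rpa3, a subunit of the single-strand binding protein RPA, fell by 0.89 (limma adjusted p = 0.00109), and Gins2 by 0.79 on its brightest probe (0.00295). The 2 other tested Gins2 probes differed by 0.10 and -0.18 and were not called (limma adjusted p = 0.716 and 0.559). Mcm5, a subunit of the MCM helicase, rose from 9.24, 9.23 and 9.53 to between 9.91 and 10.29, by 0.72 (limma adjusted p = 0.00292). Median scaling left Dctpp1, Nt5m, Nt5c, Adss, Adssl1, Mcm5 and Gins1 called and ended the calls of Slc25a36, Nme2, Dtymk, Nt5c3, Nt5c3b, Hprt, Impdh1, Rpa3 and Gins2. Leaving out 1 array ended the call of Nme2, Dtymk, Nt5c, Nt5c3b, Adssl1 and Impdh1 in at least 1 case each. Of 8 fits with an array left out, Dtymk stayed called in 1, Nt5c3b in 2, Nme2 and Adssl1 in 4, Nt5c in 6 and Impdh1 in 7. With no filter on dim probes the calls of these genes also ended.

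**Figure D4:**
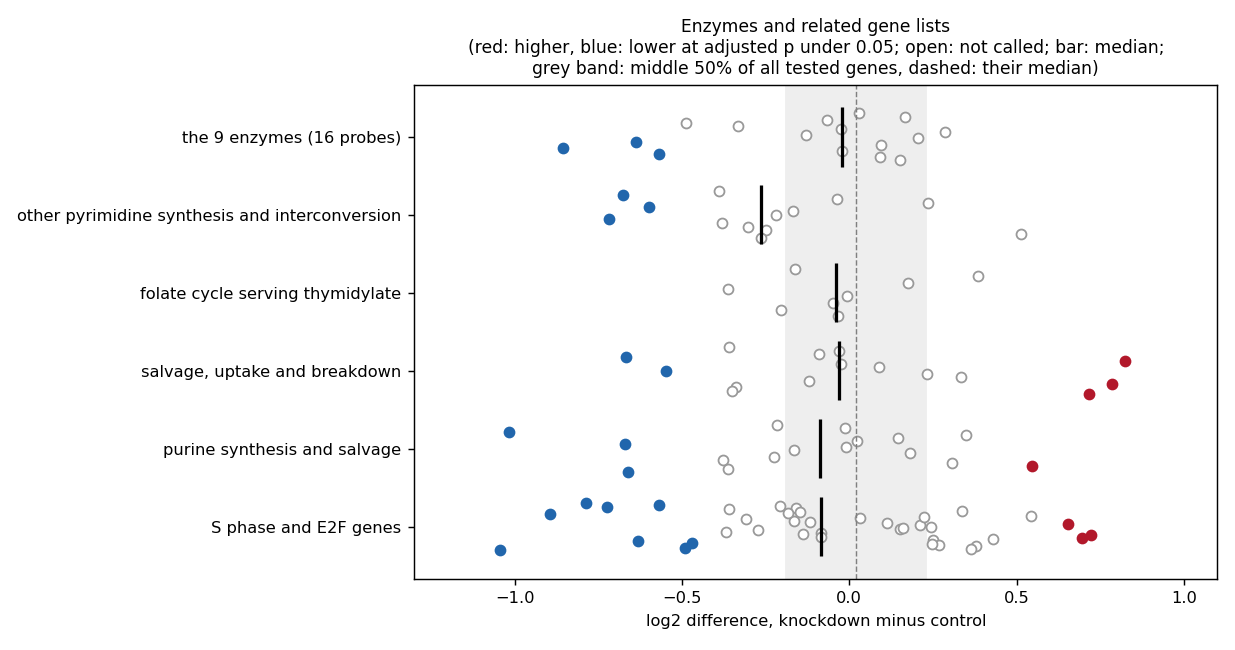
Log2 difference of knockdown minus control (horizontal axis) for each tested gene of the 5 lists and each tested probe of the 9 enzymes, with called ones filled (blue lower, red higher), bars for medians, and a grey band for the middle 50% of all tested genes. The medians lie between -0.26 and -0.03 for the lists, and S phase genes stand on both sides, from Gins1 at -1.04 to Mcm5 at 0.72.

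The genes most like Umps ILMN_1213014 over the 8 arrays, by Pearson correlation among 8187 genes, were Otulin (0.974), Cdc42bpb (0.971), Aunip (0.969), Vti1b (0.965) and Eef2 (0.964). The arrays share their normalization, and this ranking is a description. Vti1b, a SNARE protein, fell by 1.00 (limma adjusted p = 0.00801) and was not called under median scaling or when Luc control replicate 1 was dropped (0.0566). Eef2, the translation elongation factor, fell by 2.2 (limma adjusted p = 0.000694). Otulin, Cdc42bpb and Aunip differed by -0.26, -0.39 and -0.44 and were not called (limma adjusted p = 0.244, 0.0773 and 0.0808). Among the other enzymes the closest to Umps was Ctps at 0.707, ranked 724, and the most opposed was Cad at -0.413.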

How the data were processed

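Per the labels, total RNA isolated with Trizol was labelled with biotin and hybridised to Illumina bead arrays. Each probe's intensity was deposited on a linear scale, not normalized, with a detection p-value beside it that the authors deposited without stating how it was computed. A table of log2 values deposited by the authors, of unstated scaling, served as an alternative. In limma 3.58.1 (R 4.3.3) background was corrected by neqc (offset 16), followed by quantile normalization and log2. A model of 3 groups was fitted to the 8 arrays (lmFit, eBayes, two-sided), with Benjamini-Hochberg adjustment over the 13315 tested probes and 0.05 as the threshold; knockdown minus control averages both hairpins. The fit was tested on simulated data. Symbols came from the array's annotation. Named genes were all probes of the 9 enzymes, up to 4 genes of lowest p from each of 5 lists, and 5 genes most like the enzyme probe of lowest p. Members and lists were chosen with earlier results of these data known. Alternatives changed the background step, normalization, filter, variance model, weights, probe summary and arrays.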

Additional observations from a re-analysis of the deposited data

Results flagged for a closer look

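Among the 5 knockdown arrays, Ctps ILMN_1219712 measured 4.32 on Itgb3-20 replicate 4, far below the next array at 5.41 in a range that reached 5.81. Rrm2 ILMN_2714565 measured 5.6 on Itgb3-20 replicate 5, above the next at 5.05 in a range that began at 4.87. The gap took 0.73 and 0.757 of the range, over Dixon's value of 0.71 for 5 arrays, and chance alone flags about 1 in 20 such groups. The 5 arrays hold both hairpins. Replicate 4 of Itgb3-20 was the lowest array for 5 of the 16 tested enzyme probes and for 17.3% of all tested probes. Luc control replicate 3 was the lowest for 5 of the 16 and for 11.1% of all.

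For Dhodh the hairpins stood on opposite sides of the control mean, by 0.19 with Itgb3-17 and -0.33 with Itgb3-20, a difference of -0.52 between them. That difference did not pass the limma test over all probes (adjusted p = 0.328).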

How the results depend on the processing

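The 3 calls for knockdown minus control became 0 under median scaling, 1 with no filter on dim probes and 1 with the probes of a gene averaged, and 1 to 5 as single arrays were left out. The 2 calls for Itgb3-20 became 0 under median scaling, 0 with no filter, 1 with array weights and 1 with averaged probes. They became 3 with no background correction, 3 with the authors' processed log2 values and 3 with trend and robust moderation, and 0 to 5 as arrays were left out. For Itgb3-17 the count of 0 became 1 under median scaling (Tyms ILMN_2484707, higher), 2 with no background correction, 3 with the authors' processed log2 values, 2 with trend and robust moderation and 2 with array weights, and 0 to 2 as arrays were left out. On the Luc control and Itgb3-17 arrays alone 2 probes were called, both with the replicate number as a block and with no replicate block. Same-numbered arrays did not deviate together (correlations 0.0279, -0.024 and -0.0059), so the numbers were not taken to pair the arrays. The hairpin difference gave 0 to 1 calls as arrays were left out. Over all tested probes the 1189 higher and 1044 lower calls became 795 and 649 with no filter, 748 and 709 without Luc control replicate 1, and 688 and 679 without Luc control replicate 2. Direction turned only for values that were not called, and the cause was not tested. Under median scaling these were Dhodh (0.242), Tk1 (0.276), Otulin (0.0622) and Ctps ILMN_2932964 with Itgb3-17 (0.00151). As single arrays were left out, the range crossed 0 for Dhodh (-0.234 to 0.103), Tk1 (-0.128 to 0.0887), Dut (-0.258 to 0.0039), Tyms ILMN_2441895 (-0.11 to 0.0322) and ILMN_2484707 (-0.0204 to 0.316), Rrm1 ILMN_2977624 (-0.143 to 0.152) and ILMN_1258715 (-0.000437 to 0.195), Rrm2 ILMN_2714565 (-0.00244 to 0.431) and Umps ILMN_2987878 (-0.0206 to 0.175). For the difference between the hairpins it crossed 0 for Umps ILMN_1213014 (-0.869 to 0.0357) and Ctps ILMN_2620435 (-0.358 to 0.25). Of the values for single genes and lists under all alternatives, 21 turned, 898 kept their side, 111 lost and 32 gained a call, and 37 counts moved. Signal near background limits the dim probes of Umps, Rrm2, Tyms and Dut. It also limits called list genes such as Adss, Slc25a36, Impdh1 and Pcna. Their knockdown means of 4.63, 4.93, 4.82 and 4.42 lay within the range of the untested enzyme probes, 4.15 to 5.10.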

Other observations

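Ctps2, the other CTP synthase gene, was singled out after its values were seen. It differed by -0.39 for knockdown minus control (limma adjusted p = 0.105), by -0.12 with Itgb3-17 (0.718) and by -0.66 with Itgb3-20 (0.0395). The last call held in 2 of 8 fits with an array left out, with adjusted p from 0.036 to 0.152.

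The S phase list held further calls that were also named after their values were seen. Mcm7 (-0.73, limma adjusted p = 0.0237), E2f2 (-0.63, 0.0248), Prim2 (-0.57, 0.0117), Pcna (-0.49, 0.0351) and Cdc45 (-0.47, 0.0331) were lower, and for each the call ended under median scaling and with at least 1 array left out. Chaf1b (0.70, limma adjusted p = 0.00345) and Uhrf1 (0.65, 0.00646) were higher and kept their calls in all 8 fits with an array left out.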
